A study of Homo sapiens with 2 samples.

Results

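Of the 6183 peaks called for NeuroD1 in IMR-32 cells, 607 lay over 3 kb and up to 50 kb from the nearest protein-coding gene and overlapped no long non-coding RNA (lncRNA) gene, a share of 9.82% (95% exact Clopper-Pearson interval 9.09 to 10.6). These 607 intergenic peaks were taken by a rule on position alone, from RefSeq gene bodies of the GRCh38.p14 assembly. No measured value of a peak entered the rule, but it was chosen with earlier results of these data known. IMR-32 is an established neuroblastoma cell line with an amplified MYCN locus, and the labels give the genotype of the cells as WT. The series holds 1 ChIP library made with the antibody NeuroD1 (CST, #7019) and 1 input library of the same cells without antibody. Only the peaks of the ChIP library were analysed here, so there was no replicate and no comparison between conditions. The supplementary methods describe the ChIP with an H3K27Ac antibody, whereas the labels name NeuroD1. The paper reports NeuroD1 motifs enriched at its NeuroD1 ChIP-seq sites, and it profiled H3K27Ac separately by CUT&Tag. Positions and strengths of peaks alone do not identify the antibody.

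NeuroD1 is a basic helix-loop-helix (bHLH) transcription factor that drives neuronal differentiation and pancreatic endocrine development. It binds DNA as a dimer with an E-protein such as the product of TCF3, at E-boxes, short sites of the form CANNTG, among which CAGATG and CAGCTG are its usual choices. Sites bound between genes, at a distance from promoters, are often enhancers, which can act on a gene that is not the nearest one. The peak list holds positions and strengths only, so it does not tell which gene, if any, a peak acts on.

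The sequences under 5 of the 607 peaks are shown first, because these peaks reached into the RefSeq window before the start of a non-coding RNA gene and their letters could be read. In all, 13 of the 607 peaks overlapped such a window, which runs from 250 bp before to 50 bp after the start, and all 13 belonged to lncRNA genes whose body the peak did not reach. Each sequence is the stretch of the window covered by the peak, read 5′ to 3′ on the strand of the gene (RefSeq, GRCh38.p14), and capitals mark every CANNTG. RENO1 had the highest fold enrichment of the 13 (chr17:81346004-81346245, minus strand). LINC02691 held the most E-boxes (chr14:104223334-104223573, plus strand). NORAD (chr20:36051035-36051189, minus strand) and LINC01679 (chr21:43362489-43362599, minus strand) had an E-box within 2 bp of the summit. MALAT1 held none (chr11:65497488-65497682, plus strand).
RENO1: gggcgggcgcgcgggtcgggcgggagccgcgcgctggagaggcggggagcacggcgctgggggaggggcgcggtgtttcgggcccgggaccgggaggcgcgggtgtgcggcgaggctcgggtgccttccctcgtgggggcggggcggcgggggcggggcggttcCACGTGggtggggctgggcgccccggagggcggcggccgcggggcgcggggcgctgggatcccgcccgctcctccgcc
LINC02691: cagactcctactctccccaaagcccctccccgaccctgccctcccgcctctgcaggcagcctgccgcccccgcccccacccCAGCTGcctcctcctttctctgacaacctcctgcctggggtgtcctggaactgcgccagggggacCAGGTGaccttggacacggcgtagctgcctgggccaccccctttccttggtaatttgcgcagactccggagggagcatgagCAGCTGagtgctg
NORAD: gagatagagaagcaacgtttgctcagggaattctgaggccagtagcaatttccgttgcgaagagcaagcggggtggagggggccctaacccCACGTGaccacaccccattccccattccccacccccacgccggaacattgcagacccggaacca
LINC01679: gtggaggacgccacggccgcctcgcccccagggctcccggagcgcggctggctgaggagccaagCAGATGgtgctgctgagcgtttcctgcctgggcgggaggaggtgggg
MALAT1: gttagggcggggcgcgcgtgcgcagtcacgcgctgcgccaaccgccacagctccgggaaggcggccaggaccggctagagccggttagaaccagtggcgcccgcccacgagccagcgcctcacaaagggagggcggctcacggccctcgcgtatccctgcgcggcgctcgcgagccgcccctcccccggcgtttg

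The RENO1 peak had a fold enrichment of 10.99 from 40 reads, and the only E-box of its stretch was a CACGTG, the form that MYC-family dimers are known to bind. LINC02691 had a fold enrichment of 9.33 from 21 reads, 3 E-boxes, of which 2 were CAGCTG, and the nearest of them lay 24 bp from the summit. The RENO1 summit lay 319 bp before the start, outside the window, and 242 bp of its 449 bp peak were read. At LINC02691 the stretch covered 240 bp of a 244 bp peak and held the summit. The E-box counts of these stretches are therefore not comparable. At NORAD, a lncRNA known to bind Pumilio proteins, 12 reads gave a fold enrichment of 6.27, with a CACGTG 2 bp from the summit. At LINC01679 the CAGATG also lay 2 bp from the summit, with a fold enrichment of 4.66 from 18 reads over a background of 3 reads. Both E-boxes thus fell almost on the summit of a peak below or near the median strength of the 607. MALAT1, an abundant nuclear lncRNA, had a summit 183 bp before its start with a fold enrichment of 8.15 from 17 reads (95% exact Poisson interval 9.90 to 27.2).

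The motifs were searched on both strands. For the form CAGATG the reverse complement CATCTG was counted with it, and every CAGATG or CAGCTG was also counted as a CANNTG, as was every CACGTG. Of the 13 stretches under a peak, 6 held at least 1 CANNTG. The stretches were 25 to 242 bp long. At RENO1, LOC101929566, SLC38A4-AS1, LOC124905136 and LINC00265 the summit lay over 250 bp before the start, so the stretch did not hold it. A stretch without an E-box therefore does not show that the peak had none. The form CAGATG was found in 1 stretch, a CAGCTG was found in 2, and a CACGTG in 3. Over the full windows of the same 13 genes, 9 held a CANNTG, and the form CAGATG was found in 1, the form CAGCTG in 3 and the form CACGTG in 4. Across all 35116 RefSeq promoter windows, 68.7% held a CANNTG. The share was 14.7% for the form CAGATG, it was 18.0% for the form CAGCTG, and it was 7.26% for the form CACGTG. With 13 windows, these counts are a description of the sites and not a frequency for the 607 peaks, whose other sequences were not analysed here.

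Another of the 607 peaks lay on a microRNA cluster, and the mature sequences of its 5′ arms are shown because the peak interval (chr7:129774395-129774738) overlapped the hairpin of MIR96 itself. Capitals mark the seed, bases 2 to 8.
hsa-miR-96-5p: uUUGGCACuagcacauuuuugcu
hsa-miR-182-5p: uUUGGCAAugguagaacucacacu
hsa-miR-183-5p: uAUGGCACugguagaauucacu
The cluster is known from sensory organs. The 3 seeds all differ, those of miR-182-5p and miR-183-5p each by 1 base from that of miR-96-5p. The peak had a fold enrichment of 9.50 from 20 reads. The mature miR-96-5p lay 1 bp beyond its edge, miR-183-5p lay 0.229 kb away and miR-182-5p lay 3.93 kb away.

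The fold enrichment of a peak compares the ChIP pileup at its summit, plus 1, with the background expected there, plus 1. Reads and background at the summit were worked out from the deposited fold enrichment and p-value, and both were recovered for all 607 peaks to within 0.001 on the −log10 p scale. The sequencing depth is unknown, and the intervals given for reads or shares reflect counting error alone. The median background over the 607 peaks was 1.40 reads, and 184 of them (30.3%) stood at the lowest level of the list, 1.035 reads. A background over 10 reads was found at 11 peaks, all on chromosome 2, of which 6 lay beside MYCN, 4 between LRATD1 and NBAS and 1 near ETAA1.

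The intergenic peaks were about as strong as the other peaks. Their median fold enrichment was 6.87, with an interval of 6.75 to 7.23 from the ranked values, which reflects the spread between peaks and not between libraries. The quartiles were 5.79 and 9.02, and the values ran from 1.58 to 28.8. The other 5576 peaks had a median of 6.79 (6.75 to 6.87), so the medians differed by less than their intervals. Peaks overlapping a protein-coding gene had a median of 6.87 (6.78 to 7.10), peaks up to 3 kb beside one had 6.75 (6.70 to 6.79), and peaks over 50 kb away in no lncRNA gene had 6.87 (6.75 to 7.19). In reads at the summit the 607 peaks had a median of 18, from 9 to 238. Their median −log10 q was 8.25, from 1.51 to 91.4, beside 7.52 for the other peaks.

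A fold enrichment of at least 10 was reached by 112 of the 607 peaks, or 18.5% (15.4 to 21.8), beside 15.3% of all peaks and 14.9% (14.01 to 15.9) of the other peaks. The order did not carry to the very strongest sites. At 15 or more there were 19 intergenic peaks (3.13%, beside 3.52% of the others), and at 20 or more there were 7 (1.15%, beside 1.51%). All 3 pairs of intervals overlapped, and no test was made, since peaks of 1 library are not replicates.

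**Figure D1:**
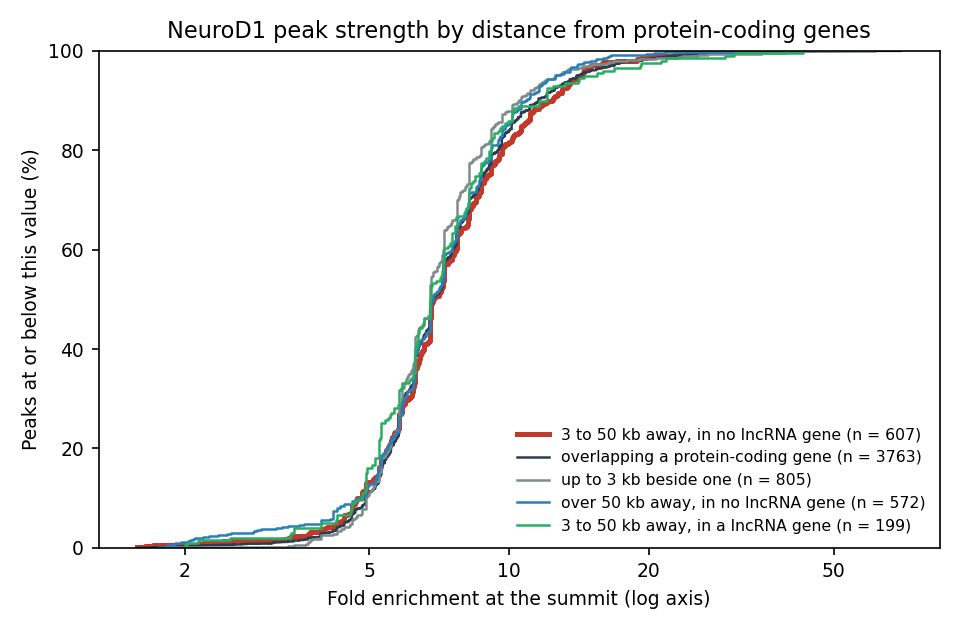
Cumulative share of peaks (y axis, percent) against fold enrichment at the summit (x axis, log scale) for the 607 intergenic peaks and 4 other position classes. The curves run close together, with medians between 6.75 and 6.87, and the red curve of the intergenic peaks lies lowest around a fold enrichment of 10.

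The widths were likewise close to those of the other peaks. The median width was 229 bp (217 to 240), with quartiles of 176 and 311 bp and a range of 146 to 1059 bp. The other peaks had a median of 219 bp (216 to 222). Peaks over 50 kb away in no lncRNA gene were narrower, with a median of 208 bp (198 to 216). Widths of at least 450 bp were found for 40 intergenic peaks (6.59%, beside 5.85% of the others). Wider peaks were stronger, with a Spearman correlation of 0.53 between fold enrichment and width across the 607 peaks and 0.45 across the others. These correlations are across peaks of 1 library, and the width is itself set by where the signal passes the caller's threshold.

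The widest and one of the strongest intergenic peaks lay between CDK5RAP3, an adaptor of protein UFMylation, and COPZ2, a coatomer subunit (chr17:48003046-48004104). It spanned 1059 bp with 83 reads (66.1 to 103) and a fold enrichment of 20.6. It lay 21.3 kb from CDK5RAP3 and 22.1 kb from COPZ2, downstream of both, since the genes point towards each other. It had the most reads of the 7 intergenic peaks above a fold enrichment of 20, although it ranked 7 of the 607 by fold enrichment, over a background of 3 reads.

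Distances ran over the whole range that the definition allows. The median distance to the nearest protein-coding gene was 15.8 kb (14.4 to 17.7), with quartiles of 7.86 and 27.4 kb. There were 199 peaks at 3 to 10 kb, 169 at 10 to 20 kb and 239 at 20 to 50 kb. Median fold enrichments in these bins were 6.99, 6.75 and 7.23, and median widths were 240, 217 and 228 bp. Strength therefore showed no trend with distance, and the Spearman correlation between the 2 across the 607 peaks was 0.03.

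Since the bins offer unequal space, summits were also counted per Mb of sequence at the same distance and outside lncRNA genes. This count uses the summit in place of the interval, which gives 638 summits in 417 Mb, or 1.53 per Mb (exact Poisson interval 1.42 to 1.66). The density was 1.83 per Mb (1.60 to 2.10) at 3 to 10 kb, 1.64 (1.41 to 1.90) at 10 to 20 kb and 1.29 (1.13 to 1.46) at 20 to 50 kb. The intervals of the nearest and farthest bins did not overlap. They treat each summit as independent, which neighboring peaks are not, so they understate the error, and no test was made. Within gene bodies, from which lncRNA genes were not left out, the density was 2.196 per Mb (2.12 to 2.28), and in the 3 kb beside genes it was 22 per Mb (20.9 to 23.1). These were 2769 and 1549 summits, beside 3763 and 805 peaks in the classes set by the interval. The summit classes are therefore not the same sets of peaks as those compared above. The step from the gene flank to 3 kb and beyond was therefore far larger than any step within the intergenic range.

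The definition has 2 limits, and the peaks next to them are given here as fold enrichments. Just inside 3 kb were peaks near SCRG1 (3.03 kb, fold enrichment 6.18), INF2 (3.04 kb, 5.47) and SPRED2 (3.08 kb, 22.7). Just outside were peaks near PEAK1 (2.98 kb, 7.45), SNN (2.97 kb, 7.19) and KCNN1 (2.96 kb, 6.79). Just inside 50 kb were peaks near LOC107983958 (49.9 kb, 9.96), DAPL1 (49.9 kb, 10.6) and MED27, a Mediator subunit (49.9 kb, 9.64). Just outside were peaks near FH (50.02 kb, 7.19), MYCN (50.1 kb, 6.02) and EZR (50.1 kb, 6.21). The next nearest of the 607 were 6.54 at CCNJL (3.09 kb) and 5.89 at CYP2J2 (3.11 kb), and the next farthest were 11.1 at LRRC74A (49.7 kb) and 5.74 at TNP1 (49.7 kb), all as fold enrichments.

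The side of the nearest gene could be told for 479 of the 607 peaks whose nearest gene has a strand in the reference tables used. Of these, 250 (52.2%, 47.6 to 56.7) lay upstream of the gene and 229 downstream. Upstream sequence made up 53.6% of the eligible space whose strand is known. In the bin nearest to genes, 62 of 149 peaks (41.6%, 33.6 to 49.96) were upstream, beside 51.6% of the space there. In the farther bins the shares were 80 of 140 (57.1%, with 53.8% of space) and 108 of 190 (56.8%, with 54.6% of space). The space share lay inside the interval overall and in the farther bins and above it in the nearest bin, which was looked at as 1 of 3 bins.

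The orientation of both flanking genes was known for 388 peaks. Between genes that point away from each other there were 96 peaks (24.7%, beside 27.6% of space), between genes that point towards each other 87 (22.4%, beside 19.7%), and between genes in tandem 205 (52.8%, beside 52.7%). Median fold enrichment was 7.56 (6.75 to 8.09) in divergent gaps, 6.27 (5.79 to 6.75) in convergent gaps and 6.79 in tandem gaps. The median widths were 249 bp (225 to 282), 209 bp (180 to 245) and 217 bp (201 to 240) in the same order. Divergent gaps held the highest medians of both measures and convergent gaps the lowest, with intervals of fold enrichment that met at 6.75 and intervals of width that overlapped. The convergent gaps include that between LRATD1 and NBAS, whose 4 peaks had fold enrichments of 1.58 to 2.19 over a raised background.

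The strongest of the 607 peaks lay beside CHRNB4, which encodes the β4 subunit of the nicotinic acetylcholine receptor of autonomic ganglia (chr15:78681590-78682153). It had 79 reads (62.6 to 98.5), a −log10 q of 91.4 and a fold enrichment of 28.8 (22.9 to 35.8 from the interval of the reads), and it lay 19.9 kb upstream of the gene. A peak with a fold enrichment of 14.4 lay 9.85 kb upstream, and another intergenic peak, of 12.5, lay 23.6 kb upstream. The 3 peaks spanned 14.3 kb of the 97.6 kb gap to ADAMTS7, a secreted metalloproteinase. CHRNB4 also had 2 peaks in its body, of 11.99 and 8.96. The strongest site was thus 1 of 5 around this gene, all above the median of the list.

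TLE3, a Groucho-family corepressor, had 3 strong intergenic peaks, on both sides. Upstream, peaks of 15.5 and 19.3 lay 3.59 and 13.3 kb away, and downstream a peak of 16.99 lay 13.7 kb away. Their reads were 47, 58 and 51 in that order. The 2 peaks over or up to 3 kb beside TLE3 had fold enrichments of 5.35 and 5.71. All 3 intergenic peaks were therefore stronger than the peaks at the gene itself.

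SSTR2, which encodes a somatostatin receptor and is a known target for imaging of neuroendocrine tumors, had 4 intergenic peaks beside it and none over its body or up to 3 kb beside it. The strongest (chr17:73155370-73155745) had 69 reads and a fold enrichment of 19.7, 9.27 kb upstream. In the same gap lay peaks of 15.1, 26.02 kb from the zinc transporter gene SLC39A11, and 8.23. A peak of 6.54 lay on the downstream side of SSTR2.

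SKOR1, a neuronal corepressor of the SKI family, had the next strongest of all 607 peaks 5.37 kb downstream of it (chr15:67839956-67840378), with 61 reads and a fold enrichment of 26.1. This interval overlapped RNU6-1, a gene for the U6 small nuclear RNA, which RNA polymerase III transcribes. SKOR1 had no other peak over its body or up to 3 kb beside it, and PIAS1, a SUMO ligase gene, lay 214 kb away on the far side. The peak is therefore intergenic only with respect to protein-coding and lncRNA genes.

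A pair of further sites with a fold enrichment above 20 stood alone. The peak 4.39 kb upstream of NUDCD3, whose product stabilizes dynein, had 48 reads and a fold enrichment of 23.6, and NUDCD3 had no peak over its body or up to 3 kb beside it. The peak 5.25 kb downstream of SAXO4 had 46 reads and 22.6, with LRRC10B 12.2 kb away on the far side, and neither gene had a peak of its own. Their nearest other summits were 111 and 85.2 kb away.

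SPRED2, an inhibitor of Ras to ERK signaling, had a peak of 22.7 (55 reads) 3.08 kb upstream, with another intergenic peak of 7.399 at 0.644 kb from it and a peak of 19.1 among the 2 over its body or up to 3 kb beside it. The gene on the far side, the homeobox factor gene MEIS1, was 999 kb away. A flanking gene can therefore be very far from a peak, and counts of flanking genes within 50 kb are given beside the full counts.

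On chromosome 8, the peak between ZNF395 and FBXO16 had 49 reads and a fold enrichment of 24.1, 15.3 kb from ZNF395, which had a peak of 14.5 in its body. The peak 9.26 kb from ZNF704 had 39 reads and 19.3, with PAG1, a membrane adaptor gene, 73.7 kb away on the other side. ZNF704 likewise had a peak of 12.1 in its body.

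The rest of the 15 strongest peaks, and a peak that tied with the last of them, lay near genes of varied function. IER5, an immediate early gene, had a peak of 18.9 at 35.8 kb downstream, in a gap of 225 kb to the calcium channel gene CACNA1E that held 3 intergenic peaks. FOXK1, a forkhead transcription factor gene, had a peak of 18.9 at 40.03 kb upstream, with LOC124901580 on the far side, and a peak of 28.8 in its body. NPTX1, a neuronal pentraxin gene, had a peak of 17.2 at 9.28 kb on its side towards RPTOR, a subunit gene of mTORC1. A peak of 15.9 lay 47.5 kb upstream of the centriole gene CEP295, with SMCO4 on the other side. An equal value was found 3.70 kb upstream of RGCC, a regulator of the cell cycle, with NAA16 on the other side. Those last 2 peaks both had 32 reads over the lowest background. Distances among the strongest peaks, both of these included, thus ran from 3.08 to 47.5 kb.

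Most gaps between genes that held any intergenic peak held just 1. The 607 peaks fell in 489 gaps, of which 402 held 1, 67 held 2 and 20 held 3 or more, so that 205 peaks shared their gap with another. The gaps had a median length of 86.7 kb. The nearest other summit of any class was a median of 37.7 kb away (30.8 to 45.3), beside 59.5 kb for the other peaks and 118 kb for peaks over 50 kb away in no lncRNA gene.

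Very close neighbors were fewer than among the other peaks. Another summit lay within 1 kb of 27 intergenic peaks (4.45%, 2.95 to 6.41), beside 8.55% (7.83 to 9.32) of the other peaks. Within 5 kb the shares were 15.3% and 16.7%. Within 12.5 kb they were 27.2% (23.7 to 30.9, 165 peaks) and 24.3%, beside 24.6% of all peaks. Neighboring peaks are not independent, so the intervals understate the error, and no test was made.

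Between ENDOV and NPTX1, 4 peaks of 4.05 to 13.7 lay within 13.5 kb. With the peaks on its other side, NPTX1 had 6 intergenic peaks beside it and none over its body or up to 3 kb beside it.

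Gaps with 4 intergenic peaks and background levels up to 10 reads lay elsewhere as well. The gap between SPESP1-NOX5 and GLCE, a heparan sulfate epimerase gene, held peaks of 5.15 to 11.9. The gap between FAM90A1 and CLEC6A, a C-type lectin gene, held peaks of 5.89 to 9.16, all within 50 kb of CLEC6A. The gap between DMRTB1 and the transcription factor gene GLIS1 held peaks of 4.71 to 7.09, and GLIS1 also had 6 peaks over its body or up to 3 kb beside it, of up to 12.5.

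A further 2 gaps with 4 peaks lay on chromosome 2, where the background was raised. Between DDX1, an RNA helicase gene often amplified together with MYCN, and MYCN itself, 14 peaks lay in 309 kb and 4 of them met the definition, with fold enrichments of 1.71 to 2.56. Between LRATD1 and NBAS, 4 peaks had fold enrichments of 1.58 to 2.19. The 11 intergenic peaks with a background over 10 reads had a median background of 46.0 reads (36.9 to 95 in range) and a median of 131 reads at the summit, from 76 to 238. Their median fold enrichment was 2.19, from 1.58 to 4.51. Without them the median of the 607 was 7.06 in place of 6.87, and the lowest value was 3.14 in place of 1.58.

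MYCN, the gene of the transcription factor N-Myc, had 6 of these peaks within 50 kb. The 4 upstream peaks had 120, 102, 81 and 76 reads over backgrounds of 45.3, 40.7, 46.0 and 38.2, from the farthest to the nearest. A downstream peak at 19.3 kb had 85 reads over 36.9. The strongest of the 6 lay 35.3 kb downstream (chr2:15982281-15982953), with 238 reads over a background of 51, a −log10 q of 71.1 and a fold enrichment of 4.51. By reads it stood above every other one of the 607 peaks, whereas by fold enrichment it was below the lower quartile. MYCN also had 3 peaks in its body, with fold enrichments of 2.35 to 5.51. The peak just outside the definition, 50.1 kb from MYCN, had 272 reads and a fold enrichment of 6.02. How far the number of MYCN copies in these cells set the reads, the backgrounds and the calls was not tested. The share of peaks with a background over 10 was 1.81% both among the 607 peaks and among the others.

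Across the 22 autosomes and X, the share of peaks that were intergenic by this definition ran from 2.44% on chromosome 18 (2 of 82 peaks) to 15.2% on chromosome 14 (25 of 165, 10.1 to 21.6). Chromosome 1 held the most, 75, followed by chromosome 17 with 65 and chromosome 12 with 50. Chromosome 19, which is gene-dense, had 21 of 364 (5.77%). The median background over the intergenic peaks of chromosome 17 was 2.47 reads, beside 1.035 on chromosomes such as 19.

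The genes on either side of the 607 peaks numbered 935, or 4.67% of the 20037 protein-coding genes. Of these, 675 (3.37% of all) lay within 50 kb of the peak, and 510 were the nearest gene of at least 1 peak. Intergenic peaks lay on both sides of 43 genes, TLE3, SSTR2, NEUROD4, NPTX1 and MYCN among them. Most flanking genes had just 1 such peak beside them (740), while 141 had 2, 35 had 3 and 19 had more. Both flanking genes were within 50 kb for 222 peaks (36.6%). The nearest gene was chosen by distance alone for every peak.

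Genes beside an intergenic peak often had a peak of their own. Of the 510 nearest genes, 183 (35.9%, 31.7 to 40.2) had a peak over the body or up to 3 kb beside it, against 21.4% of all protein-coding genes. Among genes nearest to a peak over 50 kb away the share was 148 of 418 (35.4%, 30.8 to 40.2). A raised share was therefore not particular to the 3 to 50 kb range. Counted by peak, the nearest gene had a peak of its own for 227 of 607 (37.4%).

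Neuronal bHLH genes stood among the flanking genes. Of 18 neurogenic bHLH genes and their partners, 7 flanked an intergenic peak (38.9%, 17.3 to 64.3) and 6 did so within 50 kb, beside 4.67% and 3.37% of all protein-coding genes. They were ID1, NEUROD2, NEUROD4, NEUROD6, NEUROG1, NHLH1 and TCF3. The lists were chosen with results of these data known, so the share is a description and no enrichment was tested.

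NEUROD4, a proneural factor of the same family as NeuroD1, had 4 intergenic peaks and none over its body or up to 3 kb beside it. Downstream lay peaks of 10.97, 8.37 and 10.8 at 27.5, 31.0 and 37.8 kb, and upstream a peak of 7.19 at 10.5 kb. Their reads were 27, 19, 29 and 21. NEUROD6 had peaks of 8.50 and 4.17 at 39.7 and 29.3 kb downstream, and likewise none over its body or up to 3 kb beside it. NEUROD2 (4.58 at 9.99 kb) and NEUROG1 (4.58 at 56.7 kb) flanked weak peaks of 13 reads each that lay nearer to PPP1R1B and TIFAB.

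TCF3, the gene of the E-proteins E12 and E47 with which NeuroD1 dimerizes, had a peak of 13.4 (40 reads) at 15.1 kb upstream and a peak of 12.5 within 3 kb. ID1, whose product binds E-proteins and keeps them off DNA, had a peak of 8.68 (17 reads) at 17.2 kb and a peak of 6.79 within 3 kb. NHLH1, another neuronal bHLH gene, had peaks of 7.58 and 7.19, the nearer at 3.76 kb, and 2 peaks at the gene of up to 10.9. The peak of 7.19 lay nearer to NCSTN. TCF3, ID1 and NHLH1 each had an intergenic peak above the median strength of the 607.

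Of 20 transcription factor genes of the adrenergic circuit of neuroblastoma, 5 flanked an intergenic peak (25%, 8.66 to 49.1). Within 50 kb 4 of them did (20%). The shares of all protein-coding genes were 4.67% and 3.37%. HAND1 had upstream peaks of 12.04 and 4.64 at 27.3 and 7.81 kb. HAND2, a core factor of sympathetic neurons, had a peak of 6.18 at 3.77 kb, which was the peak nearest to SCRG1. LMO1, a neuroblastoma susceptibility gene, had a peak of 5.31 from 10 reads at 17.7 kb. MEIS1 was 816 to 999 kb from the peaks that it flanked. The peaks beside MYCN, described above, had fold enrichments of 1.71 to 4.51 over a raised background. Besides HAND1, none of these genes had an intergenic peak above a fold enrichment of 10 within 50 kb.

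Lists of neuronal effectors were represented by few genes each. The share was 10.3% (2.19 to 27.4) for ion channel and synapse genes and 12.5% (3.51 to 28.99) for axon guidance and adhesion genes. It was 7.69% (0.95 to 25.1) for proneural downstream and Notch genes, beside 4.67% of all protein-coding genes. Within 50 kb the shares of these lists were 10.3%, 9.38% and 7.69% in the same order, beside 3.37% of all protein-coding genes. Of 29 ion channel and synapse genes, 3 flanked an intergenic peak, namely CHRNB4, CACNA1A (8.196 and 7.23 at 41.7 and 38.6 kb) and the vesicle fusion gene SNAP25 (7.71 at 22.04 kb). Both CACNA1A peaks lay nearer to IER2. Of 32 axon guidance and adhesion genes, 4 did, namely the adhesion molecule gene NCAM2 (11.1 at 16.04 kb), PLXNA2 (5.40 at 8.80 kb), SLIT3 (4.67 at 35.2 kb) and EPHA7, whose peak of 6.402 lay 2129 kb from it. Of 26 proneural downstream and Notch genes, 2 did, namely the receptor gene NOTCH3 (7.71 at 22.4 kb) and LFNG, a glycosyltransferase of Notch receptors (7.08 and 6.79 at 16.3 and 28.8 kb). The NOTCH3 peak lay nearer to EPHX3, and the LFNG peak at 28.8 kb lay nearer to GRIFIN.

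Of 15 catecholamine and dense-core vesicle genes, only CHGA, a granin gene, flanked an intergenic peak (6.67%, beside 4.67% of all protein-coding genes). That peak, of 10.6, lay 54.8 kb from CHGA, where GOLGA5 was nearer, so none of the 15 genes flanked one within 50 kb. Of 21 mesenchymal-state transcription factor genes, MEF2D (11.8 at 4.32 kb) was among the 3 (14.3%) that flanked one. Within 50 kb 2 of these 21 did (9.52%), beside 3.37% of all protein-coding genes. None of 24 cell cycle genes flanked one at any distance, which allows a share of up to 14.3% by the exact interval. A peak over the body or up to 3 kb beside it was found for 10 of the 24 (41.7%), beside 21.4% of all protein-coding genes. Across the lists that share ran from 20% for catecholamine and dense-core vesicle genes to 50%. The lists at 50% were the adrenergic circuit, neurogenic bHLH, and proneural and Notch lists.

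The definition leaves out peaks over protein-coding and lncRNA genes, so only RefSeq genes of other kinds could be overlapped. Most of the 607 peaks, 590 (97.2%), overlapped none of those either. Besides those at RNU6-1 and MIR96, 10 overlapped a transcribed pseudogene, such as SEC1P (13.3 from 27 reads), PTPRVP (9.46) and RP9P (8.68). There were also 2 at tRNA genes, TRX-CAT1-8 (6.37) and TRA-TGC4-1 (5.23), and the rest lay at other pseudogenes and at a snoRNA gene near MYCN (2.42). All the pseudogene and tRNA peaks other than SEC1P and the one shared by C19orf48P and TMEM277P (10.6) had fold enrichments below 10. The peaks at non-coding genes were named after their values were seen.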

How the data were processed

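Peaks of 1 NeuroD1 ChIP library of IMR-32 cells were analysed. The input library was not analysed here. Per the labels, the submitters' processing notes name BWA 0.7.17, MACS2 2.2.7 and the build hg38, whereas the peak names carry macs3 and SPMR. The control used and the q threshold are not given in the sources used here. The authors deposited a fold enrichment, which is a ratio (ChIP pileup plus 1 over local background plus 1 at the summit). They also deposited the −log10 of a Poisson p-value and of its q-value for each peak. The deposited score is 10 times the −log10 q cut to a whole number in 6182 of 6183 rows. The authors' list also gives the summit position and, in its last column, the fold enrichment divided by the width in all 6183 rows.

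Distances were measured from the peak interval to RefSeq gene bodies of GRCh38.p14, the assembly of hg38, with 20037 protein-coding genes (15842 with a strand) and 18303 lncRNA genes. Strand and promoter sequences came from 35116 RefSeq promoter windows. Reads at a summit were solved from its p-value and fold enrichment. The weight of 1 read, 0.98, and the lowest background, 1.035 reads, were read off 10 fold enrichments that recur at least 80 times each and lie on a line for 10 to 19 reads. The solver was tested on simulated data. Shares have exact Clopper-Pearson intervals, reads exact Poisson intervals and medians intervals from ranked values, all at 95%. Reads without molecular identifiers are not independent molecules, so these cover counting error only. With 1 library no test between samples exists, and none was made between peaks.

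The members and the gene lists were chosen with earlier results of these data known. The genes named are those next to the 15 strongest members and a member that ties with the last of them, the 5 closest to and 5 farthest from a gene, the gaps with at least 4 members, and the listed genes that flank a member. Any other gene was chosen for naming once its values had been seen. The results for some genes that this rule takes are not reported here. The planned E-box search at all summits was not run, because no genome sequence was used here, and motifs were searched in promoter windows instead. The alternatives changed the distance limits, the use of the summit, peaks in lncRNA genes, minimum values of q and fold enrichment, a maximum background, and the use of genes with LOC symbols and of peaks in any RefSeq gene. Analyses were run in Python 3.11.15 with scipy 1.17.1, numpy 2.4.6 and pandas 2.3.3, and figures were drawn with matplotlib 3.10.9.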

Additional observations from a re-analysis of the deposited data

How the results depend on the processing

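The 7 summary values were recomputed under 11 alternatives each, and 68 of the 77 recomputed values stayed within the limits set, which were 1.5 times for the 2 counts and the 95% interval of the value for the medians and shares. The number of genes flanking an intergenic peak ranged from 631 to 1201, beside 935. The number of intergenic peaks fell to 368 with an upper limit of 20 kb. The median fold enrichment was 7.70 when −log10 q had to reach 5 and 7.24 when the fold enrichment had to reach 5, and the median width was 247 bp with that q, since both filters remove weak peaks. The median distance was 12.6 kb with a lower limit of 1 kb, 18.4 kb with 5 kb, 9.35 kb with an upper limit of 20 kb and 22.4 kb with 100 kb, which follows from the limits. The share of peaks whose nearest gene had its own peak was 46.6% with a lower limit of 1 kb, since each peak added there is itself a peak up to 3 kb beside its nearest gene. The share upstream of the nearest gene ranged from 49.1% to 54.4%. Leaving out genes with LOC symbols, or peaks in any RefSeq gene, and all alternatives for the share upstream and the share with a peak at the nearest gene were chosen after seeing the data. The planned E-box alternatives were not run. No paired analysis was possible because only 1 ChIP library was analysed. The library depth is unknown, a peak of 9 reads has an exact Poisson interval of 4.12 to 17.1, and the reads at weak peaks therefore rank them only coarsely.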
